A study of Mus musculus with 10 samples.

Results

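Osteopontin (Spp1) and 3 genes for its receptors, Cd44, Itgav and Itgb1, were followed in single-cell counts of mouse kidney cortex. The 4 genes were chosen by name, were present in all 10 libraries, and are 4 of 28808 gene symbols. The mice were 4 weeks old. The groups were 1 control library of normal kidneys and injured kidneys at day 1, 2 and 4 (1 library each) and at day 7, 11 and 14 (2 libraries each). The labels give the day but no kind of injury, sex or strain, and do not say whether the 2 libraries of a day came from different animals, so p-values measure only the spread between these libraries. The question taken up here is which cells held the ligand and which held its receptors at each time.

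Osteopontin is a secreted, heavily phosphorylated glycoprotein with an RGD motif through which it binds integrins of the alpha v and beta 1 families. It also binds CD44, a surface glycoprotein best known as a receptor for hyaluronan. In the kidney, osteopontin is made mainly by the thick ascending limb and distal nephron, reaches the urine, where it inhibits crystal growth, and is a familiar product of damaged tubules that attracts and retains macrophages. Itgav encodes the alpha v chain, which pairs with several beta chains, and Itgb1 the beta 1 chain, which pairs with many alpha chains in almost every adherent cell.

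In the annotation of the mouse genome GRCm38 (mm10; GENCODE M21), Spp1 lies on chromosome 5 at 104435118 to 104441050 on the plus strand, and Cd44 on chromosome 2 at 102811141 to 102901665 on the minus strand. Itgav lies on chromosome 2 at 83724397 to 83806916 on the plus strand, and Itgb1 on chromosome 8 at 128685654 to 128733200 on the plus strand. Gm42793 overlaps Spp1 on the same strand, and Gm23731, Gm13684 and Dnmt3l-ps1 overlap Cd44 or Itgav on the opposite strand. Whether the authors counted by strand is not given in the sources used here. Because Spp1 and Cd44 differed most between control and injury, their start regions are shown, each as the 250 bases before a RefSeq start (GRCm38.p6), 5′ to 3′ in the direction of the gene. RefSeq gives 2 starts for Spp1: the first is shown, and the window of the other, chr5:104435942-104436191, held none of the motifs searched. Spp1 is chr5:104434861-104435110 on the plus strand and Cd44 chr2:102901666-102901915 on the minus strand, and capitals mark matches to 3 motifs.
Spp1: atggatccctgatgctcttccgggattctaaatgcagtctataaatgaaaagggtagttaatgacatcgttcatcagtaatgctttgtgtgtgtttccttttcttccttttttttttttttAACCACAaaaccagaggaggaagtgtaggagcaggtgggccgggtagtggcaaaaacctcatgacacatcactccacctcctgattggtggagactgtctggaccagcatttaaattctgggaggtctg
Cd44: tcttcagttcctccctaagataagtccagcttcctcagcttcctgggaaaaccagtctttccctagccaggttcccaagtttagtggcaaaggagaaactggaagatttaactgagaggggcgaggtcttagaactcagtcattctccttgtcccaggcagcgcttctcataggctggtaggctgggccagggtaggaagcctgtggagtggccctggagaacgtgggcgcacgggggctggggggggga
The motifs searched on both strands were AP-1 (TGANTCA), RUNX (TGTGGTT) and kappa B (GGGA and CC with 4 bases of any kind between). Spp1 held 1 RUNX match, read on the other strand, at 129 to 123 bases before the start, and Cd44 held none of the 3. Of 32851 windows of the same length, 6.75% held an AP-1 match, 4.4% a RUNX match and 17.6% a kappa B match, so these are common strings and a match here is only a description.

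The 10 tables held 64803 barcodes and 173806985 unique molecular identifiers (UMIs), 7091848 to 31632205 a library, and 52797 cells were kept. Cells were placed by marker UMIs alone, with the members not among the markers: 48143 fell in a lineage, 2.68% to 22.3% of a library stayed ungated, and the ungated share was highest in the first day 7 library (22.3%) and on day 1 (18.4%). Each library held 450 to 5097 proximal tubule cells and 11 to 211 podocytes, and distal convoluted cells were absent from the first day 7 library. The tables of both day 11 libraries hold barcodes down to 300 genes and the others down to 500, which the filter at 500 genes made equal. Of all barcodes, 99 occurred in more than 1 library. Levels are CPM (counts per 1000000 UMIs of the summed cells of a class in a library); they were compared between classes and libraries, not between genes. Log2 changes are scaled by the trimmed mean of M values (TMM), because by library totals alone the median gene of tubule cells was already 0.82 (log2) higher on day 7 than in the control. Calls were made at an adjusted p under 0.05 by the quasi-likelihood F test of edgeR, with p-values adjusted by Benjamini-Hochberg over all genes tested. Days 1, 2 and 4 and the control have 1 library each. For days 1, 2 and 4 folds are given with exact counting intervals, which cover counting error only, and no test. All folds and ratios to the control are of plain CPM without TMM scaling, so they are not on the scale of the log2 changes.

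Spp1 was high in tubule cells from day 1 to day 7 and was lower in them on days 11 and 14. In all tubule cells its level was 650.3 CPM in the control, 18756 on day 1, 6167 on day 2, 8042 on day 4, 9685 and 13679 on day 7, 1697 and 1285 on day 11, with 704 and 775 on day 14. The 5 libraries of days 1 to 7 lay above all others, and the day 14 libraries lay just above the control. On day 1 the level was 28.8-fold that of the control (interval 28.4 to 29.3). On day 7 Spp1 rose by a log2 change of 3.39 (SE 0.33, adjusted p = 3.98e-05), a comparison in which 34.5% of all genes passed. From day 7 to day 11 it fell by 2.19 (adjusted p = 4.45e-05), where 44.2% passed, and from day 7 to day 14 it fell by 3.13 (adjusted p = 4.39e-06), where 46.5% passed. On day 11 Spp1 was still higher than in the control, by 1.20 (adjusted p = 0.0208; 17.7% of all genes passed), and this call was lost without the first day 11 library (1.01, adjusted p = 0.0507). On day 14 the difference from the control was 0.26 (adjusted p = 0.583), in a comparison where 7.68% of all genes passed. The mix of segments moved with injury: proximal cells were 3682 of 5430 tubule cells in the control, 450 of 1840 and 696 of 2418 on day 7, and 5097 of 6437 and 4557 of 5823 on day 14. Each segment was therefore also examined alone. On day 14 the pooled level was 1.08 and 1.19 times the control, whereas within the 5 named segments it was 1.59 to 3.12 times the control, with both libraries above it in each segment.

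The thick ascending limb, the salt-reabsorbing segment that makes uromodulin, had the highest Spp1 of the named segments with at least 20 cells in 8 of the 10 libraries. In 3 of those 8 (day 1, day 2 and the first of day 7) the distal convoluted tubule had 17, 8 and 0 cells and was not compared. Its levels were 1783 CPM in the control, 44160.4 on day 1, 27756 on day 2, 26495 on day 4, 16241 and 25752 on day 7, 5219 and 4978 on day 11, with 3289 and 3635 on day 14. The 5 libraries of days 1 to 7 stood clear of the rest, and every injured library was above the control. The exceptions to its first place were the control and the first day 14 library, where the distal convoluted tubule, the next segment downstream, held 1806 and 4419 CPM. On day 7 Spp1 rose in the thick limb by a log2 change of 2.90 (SE 0.27, adjusted p = 9.68e-07; 21.1% of all genes passed), and on day 11 it was higher than in the control by 1.42 (adjusted p = 0.00204; 10.8% passed). On day 14 the difference was 0.93 and did not pass (adjusted p = 0.0635; 1.41% passed); without either day 7 library it did (adjusted p = 0.00398 and 0.00261).

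Proximal tubule cells, the bulk reabsorbing cells of the cortex, went from the lowest Spp1 of the segments in the control to levels above principal cells on day 7. Their level was 41.6 CPM in the control, close to the 46.5 CPM of endothelial cells. It was 8344 on day 1, 1873 on day 2, 4568 on day 4, 9813 and 13718 on day 7, 261 and 321 on day 11, with 66 and 122 on day 14. Days 1 to 7 did not overlap the other libraries. Without TMM scaling the fold over the control was 201 on day 1 (interval 186 to 217), 45.0 on day 2 (interval 41.7 to 48.7) and 110 on day 4 (interval 102 to 119). After TMM scaling the levels were 55.7 in the control, 6999, 1753 and 3790 on days 1, 2 and 4, and 6928 and 10204 on day 7. On day 7 Spp1 rose by a log2 change of 7.26 (SE 0.50, adjusted p = 2.62e-06; 38.1% of all genes passed), and on day 11 it was higher by 2.68 (SE 0.39, adjusted p = 0.00157; 20.7% passed). On day 14 the difference of 1.02 did not pass (adjusted p = 0.0986; 8.73% passed), although it did without the first day 14 library (1.38, adjusted p = 0.0417).

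On days 7 and 11 the change was larger in proximal cells than in the thick limb or in principal cells. In a model of proximal and thick limb sums with the library as a block, chosen after the data were seen, the day 7 change of Spp1 was larger in proximal cells by 4.35 on the log2 scale (SE 0.21, adjusted p = 4.63e-21), where 21.9% of all genes differed between the segments. On day 11 the difference was 1.31 (SE 0.20, adjusted p = 2.51e-05; 3.4% of genes differed) and on day 14 it was 0.09 (SE 0.20, adjusted p = 0.926; 3.35% differed). Against principal cells of the collecting duct the proximal change was larger by 4.58 on day 7 (SE 0.21, adjusted p = 3.49e-98; 20.6% differed) and by 1.94 on day 11 (SE 0.21, adjusted p = 2.11e-16; 3.26% differed), while on day 14 the difference was -0.54 (SE 0.21, adjusted p = 0.165; 3.39% differed). These models have 3 residual degrees of freedom among libraries and borrow their spread across genes. Adjusted p-values as small as 3.49e-98 come from that borrowed spread, with 1 control library, and overstate what 10 libraries can show. Although its change was smaller, the thick limb had a higher Spp1 level than proximal cells in 10 of 10 libraries. The mean difference was 3.40 in log2(CPM + 10) (SD 1.68, two-sided exact permutation test over libraries, p = 0.001953, the smallest possible, adjusted p = 0.01406 over 36 tests).

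In principal and distal convoluted cells Spp1 was still higher than in the control on day 14. In principal cells, which take up water and sodium in the collecting duct, the level was 503 CPM in the control, 8596, 3534 and 3600.4 on days 1, 2 and 4, 3230.0 and 4844 on day 7, 970.3 and 859 on day 11, with 1369 and 1427 on day 14. All 9 injured libraries were above the control, and day 14 was above day 11. Spp1 rose in principal cells on day 7 by 2.70 (SE 0.28, adjusted p = 1.17e-07; 9.33% of all genes passed). On day 14 it was higher by 1.58 (SE 0.26, adjusted p = 0.000534; 2.78% passed). On day 11 the difference of 0.81 missed the threshold (adjusted p = 0.0542; 6.63% passed) but passed without either day 7 library (adjusted p = 0.00424 and 0.0032) and with a 50% gate (0.82, adjusted p = 0.0418).

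Distal convoluted cells, few in injured libraries, had 1806 CPM of Spp1 in the control, 9611 on day 4, 10251 in the second day 7 library, 2905 and 3662 on day 11, with 4419 and 3407 on day 14. They were higher than the control on day 11 by 0.62 (adjusted p = 0.00337; 11.1% of all genes passed) and on day 14 by 0.97 (adjusted p = 2.38e-06; 6.18% passed). Each call was lost when 1 library was left out, while the difference stayed positive. It was 0.51 on day 11 without the second day 11 library, and 0.79 on day 14 without the first day 14 library. In acid-base-regulating intercalated cells Spp1 was 539.6 CPM in the control, 6489 and 9538 on day 7, 2395 and 2027 on day 11, with 1114 and 1683 on day 14. It rose on day 7 by 3.38 (SE 0.44, adjusted p = 2.15e-05; 4.95% passed), was higher on day 11 by 1.82 (adjusted p = 0.0241; 2.52% passed) and did not pass on day 14 (1.27, adjusted p = 0.269; 0.33% passed). The day 11 call in intercalated cells was lost without any 1 of the 4 libraries of days 11 and 14 (adjusted p from 0.0848 to 0.107).

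**Figure D1:**
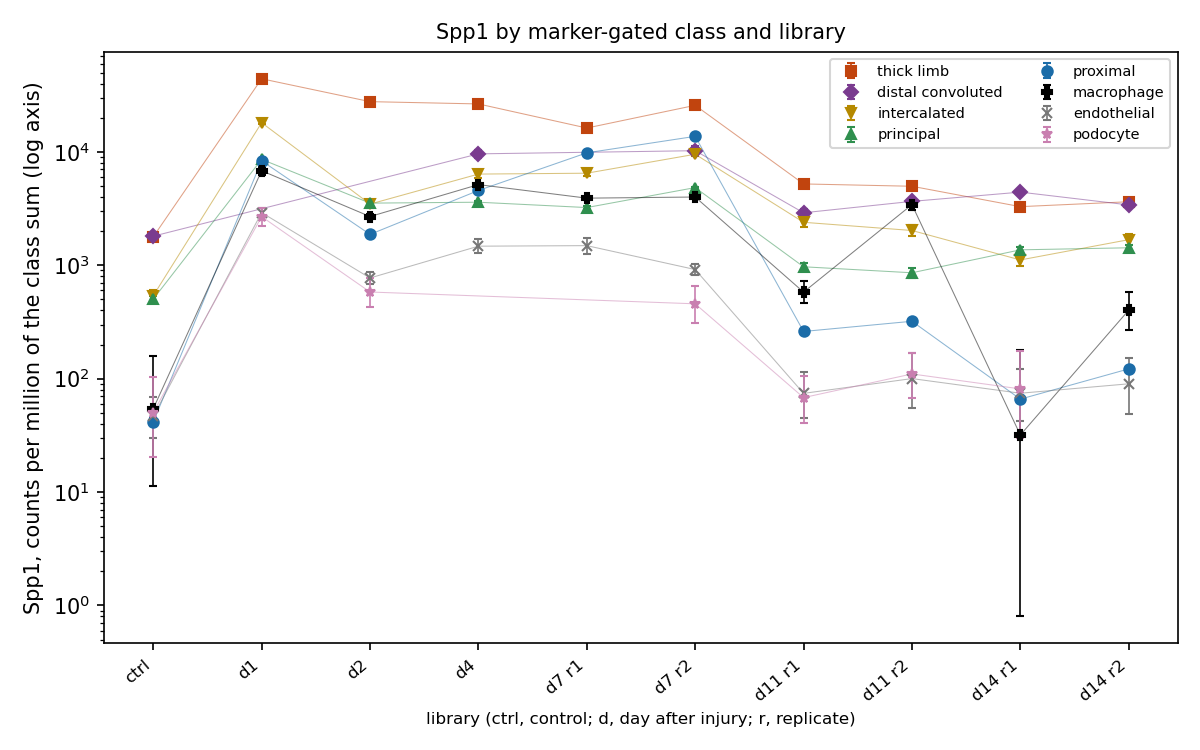
Spp1 level in CPM (log axis) by library for 8 marker-gated classes with at least 20 cells; bars are exact 95% counting intervals and thin lines only join a class's points. Thick limb cells lie between 1783 and 44160.4 CPM, proximal cells move from 41.6 CPM in the control to 13718 in the second day 7 library, and endothelial cells and podocytes lie lowest on days 1 to 7.

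Tubule cells held most of the Spp1 UMIs at every time, but the segments that held them shifted. They held 99.5% of the UMIs of kept cells in the control, 92.6%, 93.3% and 90.8% on days 1, 2 and 4, 78.8% and 87.4% on day 7, 94.9% and 94.2% on day 11, with 99.5% and 99.4% on day 14. The thick limb alone held 59.3% in the control and 21.0% and 27.5% on day 7, and proximal cells 3.64% in the control, 33.2% on day 4 and 19.2% and 28.2% on day 7. On day 14 the proximal share was 6.98% and 11.7%. Tubule cells without a segment held 31.0% and 22.6% on day 7, more than the 16.8% of the control, and the segment of these UMIs is not known. Gated macrophages held at most 8.86%, in the first day 7 library. Ungated cells were 22.3% of that library's cells, and 81.8% of them held a UMI of 8 leukocyte genes. Their Spp1 averaged 6157 CPM over the 2 day 7 libraries. The class of these UMIs is not known, so 8.86% is not an upper limit for all macrophages. Shares follow both cell numbers and levels, and within classes the UMIs were uneven: in thick limb cells the 10% of cells with most Spp1 held 44.7% to 65.0% of them, depending on the library.

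**Figure D2:**
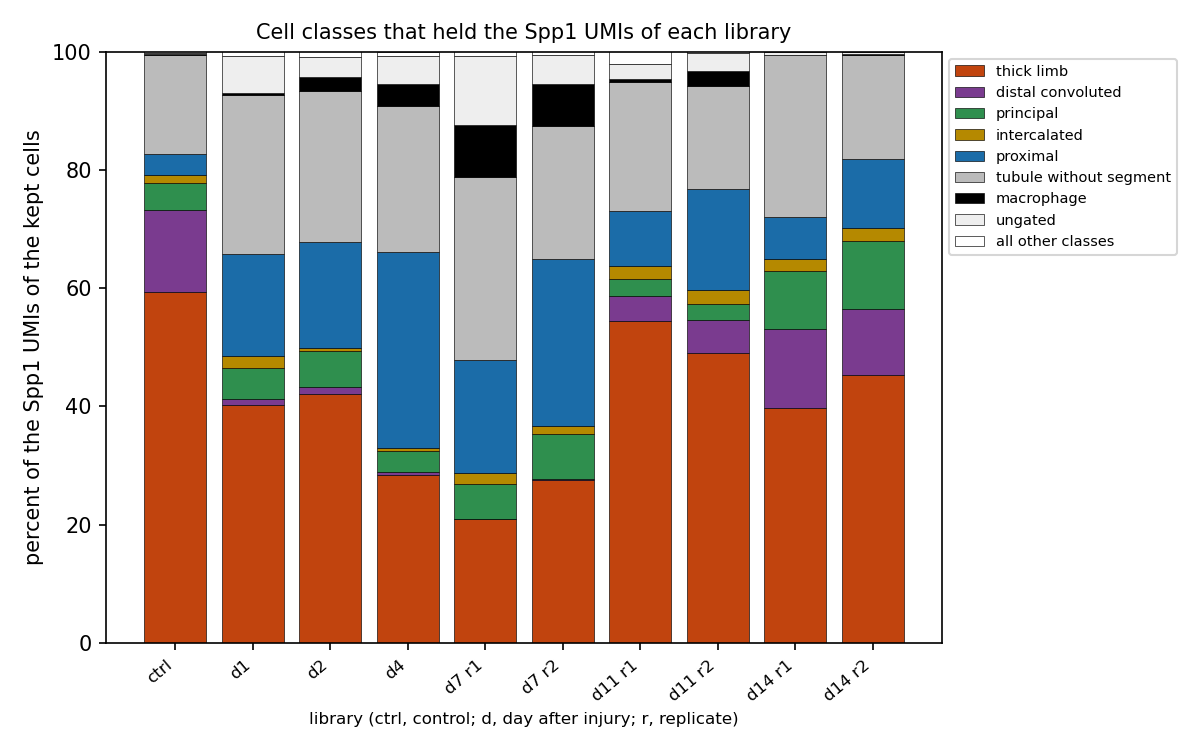
Percent of each library's Spp1 UMIs, over all kept cells, held by each class (stacked bars that sum to 100). The thick limb falls from 59.3% in the control to 21.0% and 27.5% on day 7, while the proximal share moves from 3.64% to 19.2% and 28.2%.

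Outside the tubule, Spp1 was found on days 1 to 7 in every class with at least 20 cells. Endothelial cells had 46.5 CPM in the control, 2915, 773 and 1474 on days 1, 2 and 4, 1491 and 917 on day 7, 74.2 and 100.2 on day 11, with 74.4 and 90.1 on day 14. These levels were 4.69% to 18.9% of the level over all cells of the same library, and podocytes followed them closely (0.50 to 1.10 of the endothelial level in the 7 libraries with 20 podocytes). In edgeR's test Spp1 rose in endothelial cells on day 7 by 4.49 (SE 0.42, adjusted p = 6.09e-12; 4.09% of all genes passed) and not on day 11 (0.93, adjusted p = 0.251; 5.02% passed) or day 14 (0.78, adjusted p = 0.487; 2.5% passed). Stromal cells had 54.7 CPM in the control (9 UMIs), 4393, 2195 and 9829 on days 1, 2 and 4, 3574 and 2752 on day 7, 3616 in the first day 11 library, and no Spp1 UMI in the first day 14 library (24 cells). On day 4 and in the first day 11 library they lay above tubule cells, at 6.67 and 48.7 times the endothelial level, and in the latter 17 of 68 cells had a Spp1 UMI. Over 8 libraries they were below tubule cells in 6, by 1.93 in log2(CPM + 10) (SD 2.22), which missed the threshold (exact permutation test, adjusted p = 0.075) and passed with a 50% gate over 10 libraries (adjusted p = 0.0216). In stromal cells the day 7 difference from the control was 5.61 (SE 0.61, adjusted p = 7.87e-17; 7.57% passed), in a fit with 1 residual degree of freedom. The part of free RNA from tubule cells in these changes was not tested. Endothelial cells were below tubule cells in 10 of 10 libraries, by 3.22 in log2(CPM + 10) (SD 0.60; exact permutation test, adjusted p = 0.01406).

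Macrophages, which are known to make osteopontin when activated, lay above the endothelial level in 9 of 10 libraries. Their Spp1 was 54.3 CPM in the control (3 UMIs in 40 cells), 6823, 2691 and 5148 on days 1, 2 and 4, 3910.0 and 4001 on day 7, 580.0 and 3429 on day 11, with 31.9 and 402 on day 14. From day 1 to day 7 this was 2.34 to 4.36 times the endothelial level of the same library. In the control the ratio was 1.17 and in the first day 14 library 0.43. The difference from endothelial cells, a comparison added after the data were seen, averaged 1.73 in log2(CPM + 10) (SD 1.57; two-sided exact permutation test, p = 0.005859, adjusted p = 0.01758 over 12 added tests). After each cell was thinned to 500 UMIs, 59.4% and 45.0% of macrophages still had a Spp1 UMI on day 7, against 53.6% and 37.8% of endothelial cells. Unthinned the shares were 83.4% and 75.6% against 74.7% and 63.9%, at median depths of 1279 and 1721 against 954 and 1081.5 UMIs. The share of cells therefore separated the classes less than the level did, and the Spp1 UMIs of macrophages were concentrated: the top 10% of cells held 61.8% and 77.8% on day 7. In the second day 11 library 6 of 58 macrophages held 94.1%. Neutrophils, compared only on days 1 and 2, also had high Spp1, with a median of 6603 CPM over those 2 libraries, below tubule cells in both. Tubule gate markers summed to 4458 and 3719 CPM in neutrophils, against 1217 and 706 in macrophages of the same libraries. The part of free tubule RNA in either class was not tested.

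Macrophage Spp1 rose on day 7 by 6.05 (SE 1.05, adjusted p = 0.000956; 2.96% of all genes passed). With 3 control UMIs the ratio itself was 72.0 (interval 24.6 to 349) and 73.7 (interval 25.2 to 357) in the 2 day 7 libraries. The day 11 difference of 5.39 (adjusted p = 0.00655; 2.24% passed) was lost without the second day 11 library (3.70, adjusted p = 0.146) or the second day 14 library (adjusted p = 0.069). Day 14 was not called (2.24, adjusted p = 0.483; 0.541% passed). Macrophages were below tubule cells in 9 of 10 libraries, by 1.49 in log2(CPM + 10) (SD 1.49; exact permutation test, adjusted p = 0.03245). That call was lost when any 1 of 7 libraries was left out, with adjusted p-values of 0.0536 to 0.0649: the control, day 1, day 4, the second of day 7, the first of day 11 and both of day 14. Macrophages with C1q UMIs, a mark of tissue macrophages, and those without differed in Spp1 by 0.25 in log2(CPM + 10) (SD 0.58) over 4 libraries, too few for an exact permutation test to go below p = 0.125.

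Cd44 was almost absent from control tubule cells and was high in them on days 4 and 7. In all tubule cells the level was 0.322 CPM in the control (9 UMIs), 21.6 on day 1, 15.9 on day 2, 129 on day 4, 120.2 and 180.0 on day 7, 2.62 and 0.619 on day 11, with 0.382 and 0.852 on day 14. Days 4 and 7 stood far above the rest, days 1 and 2 lay between, and days 11 and 14 rest on 6 to 26 UMIs a library. On day 7 Cd44 rose by a log2 change of 8.07 (SE 0.67, adjusted p = 1.67e-05), and from day 7 to day 11 it fell by 5.75 (SE 0.44, adjusted p = 7.39e-06). On day 11 the difference from the control of 2.31 missed the threshold (adjusted p = 0.0689), and on day 14 it was 0.98 (adjusted p = 0.501). The day 11 difference passed without the first day 7 library (adjusted p = 0.0497) and without the second day 11 library (2.98, adjusted p = 0.0437). Without the first day 11 library it was 0.957 (adjusted p = 0.53). Between day 11 and day 14 the difference was -1.34 (adjusted p = 0.199), in a comparison where 12.3% of all genes passed.

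Proximal cells held 77.3% of the Cd44 UMIs of tubule cells on day 4, 48.4% and 72.9% on day 7, 75.7% on day 2 and 35.2% on day 1. Tubule cells without a segment held 35.8% on day 1 and 42.0% in the first day 7 library. Of the UMIs of all genes in tubule cells, proximal cells held 12585887 of 19571687 on day 4 and 8629374 of 13711933 on day 2. They held 3110709 of 7488966 on day 1, and 1092609 of 4548932 and 3544682 of 11024755 on day 7. The Cd44 share was below this share on day 1 and above it on days 2 to 7, most clearly on day 7. In proximal cells the level was 0.188 CPM in the control (3 UMIs), 18.3, 19.1 and 155 on days 1, 2 and 4, 243 and 408 on day 7, and at most 1.58 on days 11 and 14. The ratio to the control was 824 on day 4 (interval 281 to 3998), and 1293 (interval 438 to 6309) and 2176 (interval 743 to 10564) on day 7. In the thick limb it was 0.493 CPM in the control, 26.8, 13.8 and 25.8 on days 1, 2 and 4, 40.1 and 27.7 on day 7, and at most 2.79 later. The thick limb was therefore above proximal cells on day 1 and far below them on days 4 and 7. Cd44 rose on day 7 in proximal cells (9.81, SE 0.79, adjusted p = 5.96e-06) and in the thick limb (5.25, SE 0.62, adjusted p = 1.3e-05). The change was larger in proximal cells by 4.53 (SE 1.59, adjusted p = 0.0336), and 3 UMIs in each control set the precision. In principal cells no Cd44 UMI was found in the control, and on day 7 the level was 15.8 and 14.3 CPM, at least 8.49-fold and 7.67-fold the control taken at 3 counts (adjusted p = 0.00317 in edgeR's test). On days 1, 2 and 4 principal cells had 7.59, 4.47 and 17.8 CPM, below proximal cells in each library of days 1 to 7. Over all 10 libraries principal cells were below proximal cells in 9, with a mean difference of -1.185 in log2(CPM + 10) (SD 1.555; exact permutation test, adjusted p = 0.02344). In the control and on days 11 and 14 both segments held too few Cd44 UMIs for their order to carry weight.

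Within proximal cells Cd44 was higher where Havcr1, the gene for the injury marker KIM-1, was detected, in each library of days 1 to 7. With a Havcr1 UMI the level was 20.9 CPM on day 1, 54.5 on day 2, 210.5 on day 4, and 299.6 and 498 on day 7. Without one it was 5.71, 5.61, 32, 55 and 103. Each of these 5 libraries showed the same order. In the control and on days 11 and 14 the Havcr1-positive proximal cells, 27 to 51 a library, held 1 Cd44 UMI in all. Over all 10 libraries the mean difference was 1.06 in log2(CPM + 10) (SD 1.08), with 6 libraries higher and 4 lower, and it missed the threshold (two-sided exact permutation test, p = 0.03125, adjusted p = 0.0625 over 12 tests added after the data were seen). Over all tubule cells it was 1.20 (SD 1.39), with 5 libraries higher and 5 lower (exact permutation test, adjusted p = 0.1406). Havcr1-positive cells were deeper, with a median of 3712 against 1745.5 UMIs in the second day 7 library. Thinned to 500 UMIs, 17.3% of them had a Cd44 UMI there, against 4.71% of the others. Unthinned the shares were 56.6% and 13.8%.

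Macrophage and other leukocyte RNA moved with the tubule values, so it was measured beside them. The summed level of 8 leukocyte genes in tubule cells was 10.6 CPM in the control and 488 and 174 on day 7, which was 3.50% and 1.17% of the macrophage level. Cd44 in the same tubule cells stood at 84.6% and 115% of its macrophage level, and in proximal cells at 171% and 261%. How much of the tubule Cd44 was leukocyte RNA was not tested. A further set was the tubule cells with no UMI of any of these 8 genes or of a leukocyte gate marker. It held 4765 of 5430 control tubule cells, and 524 of 1840 and 1057 of 2418 on day 7. The set thus left out a larger part of the day 7 cells than of the control cells. Cd44 there was 0.159 CPM in the control (3 UMIs) and 164 and 189 on day 7. In that set, chosen after the data were seen, the day 7 change was 9.18 for Cd44 (adjusted p = 3.9e-05) and 4.00 for Spp1, and each member's call at day 7 was as in all tubule cells.

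**Figure D3:**
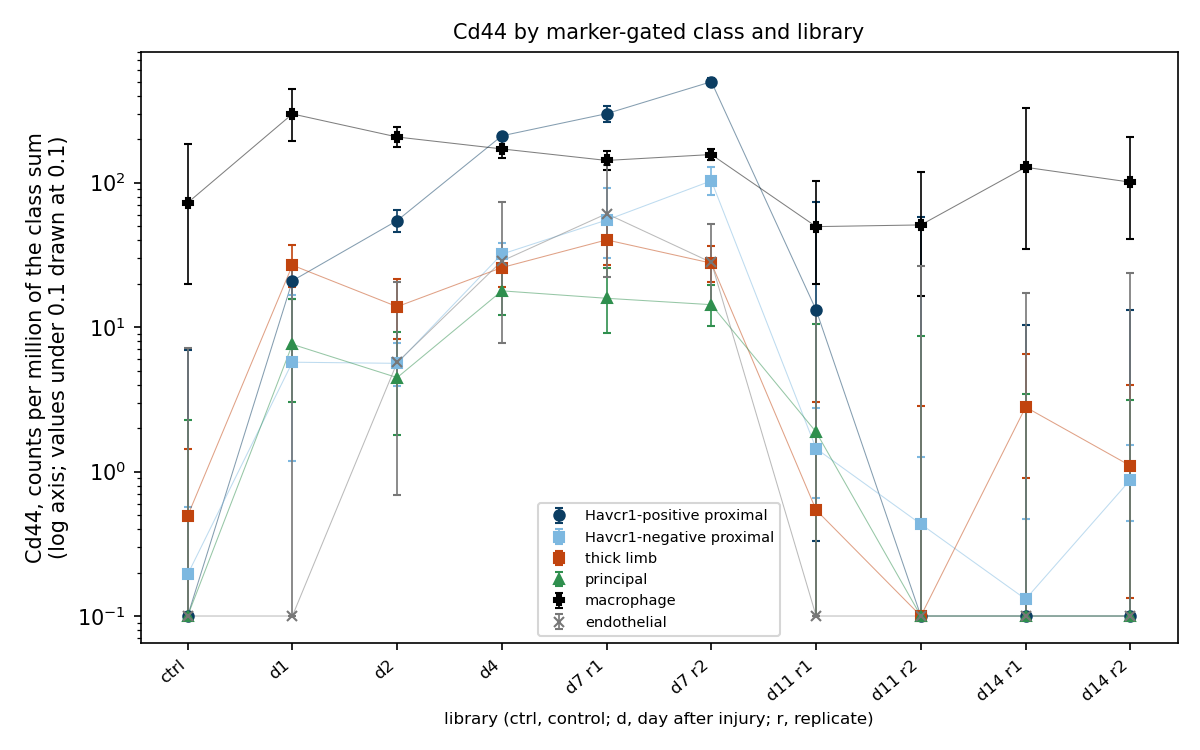
Cd44 level in CPM by library (log axis, values under 0.1 drawn at 0.1) for 6 marker-gated classes with at least 20 cells; bars are exact 95% counting intervals and thin lines only join a class's points. Proximal cells with a Havcr1 UMI reach 498 CPM and pass the macrophages on days 4 and 7, and macrophages lie between 49.5 and 298 CPM in all libraries.

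Macrophages carried Cd44 in every library. Their level was 72.4 CPM in the control, 298, 207 and 171 on days 1, 2 and 4, 142 and 156 on day 7, 49.5 and 50.9 on day 11, with 127 and 101 on day 14. The control and days 11 and 14 rest on 4 to 7 UMIs each. Cd44 was not called in macrophages on day 7 (0.91, SE 0.69, adjusted p = 0.509), day 11 (-0.33, adjusted p = 0.86) or day 14 (0.54, adjusted p = 0.827). They were above tubule cells in 9 of 10 libraries, all but the second day 7 library, by 2.16 in log2(CPM + 10) (SD 1.46; exact permutation test, adjusted p = 0.02344). By the same test this call was lost with at least 50 cells (1.65 over 7 libraries, adjusted p = 0.0729). It was also lost with a 90% gate (1.36 over 6 libraries, adjusted p = 0.175). Macrophages were above endothelial cells in 10 of 10 (2.97, SD 1.08; adjusted p = 0.01172 over the added tests, exact permutation test). Macrophages without C1q UMIs had more Cd44 than C1q-positive ones in the 4 libraries with 20 of each: 259 against 132 CPM on day 2, 259 against 123 on day 4, and 169 against 141 and 242 against 139.7 on day 7. Over 4 libraries an exact permutation test cannot go below p = 0.125, the value found.

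Neutrophils, present in numbers only on days 1 and 2, had the highest Cd44 of any class there, at 456 CPM (18 UMIs) and 348 CPM (20 UMIs). T and NK cells had 59.3 and 122 CPM on day 7, from 27 and 177 cells with 33726 and 287554 UMIs in all. The first value thus rests on few Cd44 UMIs. Endothelial cells had no Cd44 UMI in the control, on day 1, on day 11 or on day 14, and 60.8 and 28 CPM (6 and 10 UMIs) on day 7. Endothelial cells were below tubule cells in 10 of 10 libraries, by 0.81 in log2(CPM + 10) (SD 0.85; exact permutation test, adjusted p = 0.01406). In the control and on days 11 and 14 tubule Cd44 was itself too low for the endothelial sums to hold a UMI at that level. The order in those libraries was therefore set by the absence of UMIs, and no conclusion is drawn from this call. Stromal cells had none in the control and 41.8 to 105 CPM on days 1 to 7, from 3 to 11 UMIs a library.

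Itgav followed the same days with a smaller swing. Its level in tubule cells was 48.2 CPM in the control, 181, 130.3 and 132 on days 1, 2 and 4, 199 and 192 on day 7, 33.5 and 37.3 on day 11, with 59.1 and 45 on day 14. The 5 libraries of days 1 to 7 lay above all others, and both day 11 libraries lay below the control. Itgav rose on day 7 by 1.24 (SE 0.23, adjusted p = 0.00216) and fell from day 7 to day 11 by 1.68 (SE 0.19, adjusted p = 5.8e-05). It differed from the control neither on day 11 (-0.44, adjusted p = 0.184) nor on day 14 (0.19, adjusted p = 0.626) beyond the spread. From day 11 to day 14 it was higher by 0.63, with an adjusted p at the threshold (0.05), and missed it when any 1 of those 4 libraries was left out (adjusted p from 0.0877 to 0.397), so that difference is not counted here. By segment the day 7 change was 1.56 in proximal cells (SE 0.27, adjusted p = 0.00101), 0.97 in the thick limb (SE 0.28, adjusted p = 0.0215) and 1.25 in principal cells (SE 0.33, adjusted p = 0.0137). It was 1.07 in intercalated cells and did not pass there (adjusted p = 0.133). The proximal and thick limb changes differed by 0.60 (SE 0.23, adjusted p = 0.0553).

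In the libraries compared, Itgav was lower in endothelial and stromal cells than in tubule cells, in part from sums with no Itgav UMI. In the control it was 36.1 CPM in proximal cells, 62.9 in the thick limb, 60.2 in principal cells, 90.6 in intercalated cells, 144 in podocytes, 72.4 in macrophages (4 UMIs) and 17.4 in endothelial cells. On day 7 intercalated cells had 228 and 311 CPM and macrophages 49.7 and 33.3. The thick limb was above proximal cells in 9 of 10 libraries (0.56, SD 0.43; exact permutation test, adjusted p = 0.02344). Endothelial cells were below tubule cells in 10 of 10 (-1.96, SD 1.003, adjusted p = 0.01406), stromal cells in 8 of 8 (-1.24, SD 0.99, adjusted p = 0.02344) and macrophages in 8 of 10 (-1.18, SD 0.91, adjusted p = 0.02344), each by the exact permutation test. No Itgav UMI was found in stromal cells of the first day 14 library (24 cells). Nor was one found in endothelial cells of the first day 7 or second day 14 library. Macrophage sums held 141385 and 98287 UMIs on day 11, and 31381 and 69612 on day 14. At mean Itgav levels of 8.62 and 39.0 CPM on those days, they rest on few Itgav UMIs. With at least 50 cells the stromal call was lost (-0.64 over 5 libraries, exact permutation test, adjusted p = 0.125). Proximal cells with a Havcr1 UMI had more Itgav than those without in 9 of 10 libraries (0.37, SD 0.28; exact permutation test, adjusted p = 0.01562 over the added tests). This call was lost with Havcr1-positive set at 2 UMIs or more (0.39 over 5 libraries, adjusted p = 0.107) and with a 90% gate (0.34, adjusted p = 0.0938). Over all tubule cells the difference in Itgav by Havcr1 was 0.09 (SD 0.49), with 5 libraries higher and 5 lower (exact permutation test, adjusted p = 0.6548 over 36 tests), and in the thick limb it was -0.11, with 2 higher and 2 lower.

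Itgb1 had the smallest day 7 change of the 4 members in tubule cells, and its level was higher in endothelial and stromal cells than in tubule cells. In tubule cells its level was 214 CPM in the control, 381, 288 and 361 on days 1, 2 and 4, 470.2 and 418 on day 7, 156 and 130.5 on day 11, with 156 and 145 on day 14. In plain CPM the 5 libraries of days 1 to 7 lay above the control and the later 4 below it. Scaled by TMM, the levels were 259 in the control, 331, 267 and 307 on days 1, 2 and 4, and 325 and 302 on day 7. Day 2 was then close to the control. After TMM scaling the day 7 change was 0.27 and did not pass (SE 0.21, adjusted p = 0.337). By library totals it was 1.06 and passed (adjusted p = 0.00264), against a median gene at 0.82 by the same scaling. From day 7 Itgb1 fell by 0.85 to day 11 (adjusted p = 0.00237) and by 0.70 to day 14 (adjusted p = 0.00621), and the latter was lost without the second day 14 library (-0.65, adjusted p = 0.0786). Against the control the differences were -0.57 on day 11 (adjusted p = 0.0723) and -0.43 on day 14 (adjusted p = 0.207). The day 11 difference passed without either day 7 library (adjusted p = 0.0337 and 0.0329).

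In proximal cells Itgb1 was 213 CPM in the control, 461 and 452 on day 7, and 129.8 and 115 on day 11. On day 11 it was lower than in the control, with a log2 difference of -0.92 (SE 0.20, adjusted p = 0.0101), and this was lost without the second day 11 library (adjusted p = 0.0887). The day 14 difference of -0.66 missed the threshold (adjusted p = 0.0669) and passed without either day 7 library (adjusted p = 0.0296 and 0.0295). In the thick limb the day 7 difference was 0.52 (adjusted p = 0.113), and it passed without the second day 7 library (0.64, adjusted p = 0.0397).

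Endothelial Itgb1 was 1481 CPM in the control, 766 to 897 from day 1 to day 7, 879 and 773 on day 11, then 939 and 1236 on day 14, with every injured library below the control. On day 7 it was lower, with a log2 difference of -1.01 (SE 0.29, adjusted p = 0.0268), a call that was lost without the second day 7 library (adjusted p = 0.175) or the first day 11 library (adjusted p = 0.0549), and with a 50% gate (-0.87, adjusted p = 0.0646). Podocytes, which anchor to the glomerular basement membrane through integrins, had 1725 CPM in the control and 959 to 2324 in the other libraries with 20 of them. Stromal cells had 879.7 to 1526 CPM, and T and NK cells 1097 and 953 on day 7. Endothelial cells were above tubule cells in 10 of 10 libraries (1.86, SD 0.84; exact permutation test, adjusted p = 0.01406) and stromal cells in 8 of 8 (2.06, SD 0.68, exact permutation test, adjusted p = 0.02344). Macrophages, at 144 to 509.9 CPM, did not differ from tubule cells beyond the spread (0.35, SD 0.61, exact permutation test, adjusted p = 0.2109), and were below endothelial cells in 10 of 10 (-1.51, SD 0.64, exact permutation test, adjusted p = 0.01172 over the added tests).

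**Figure D4:**
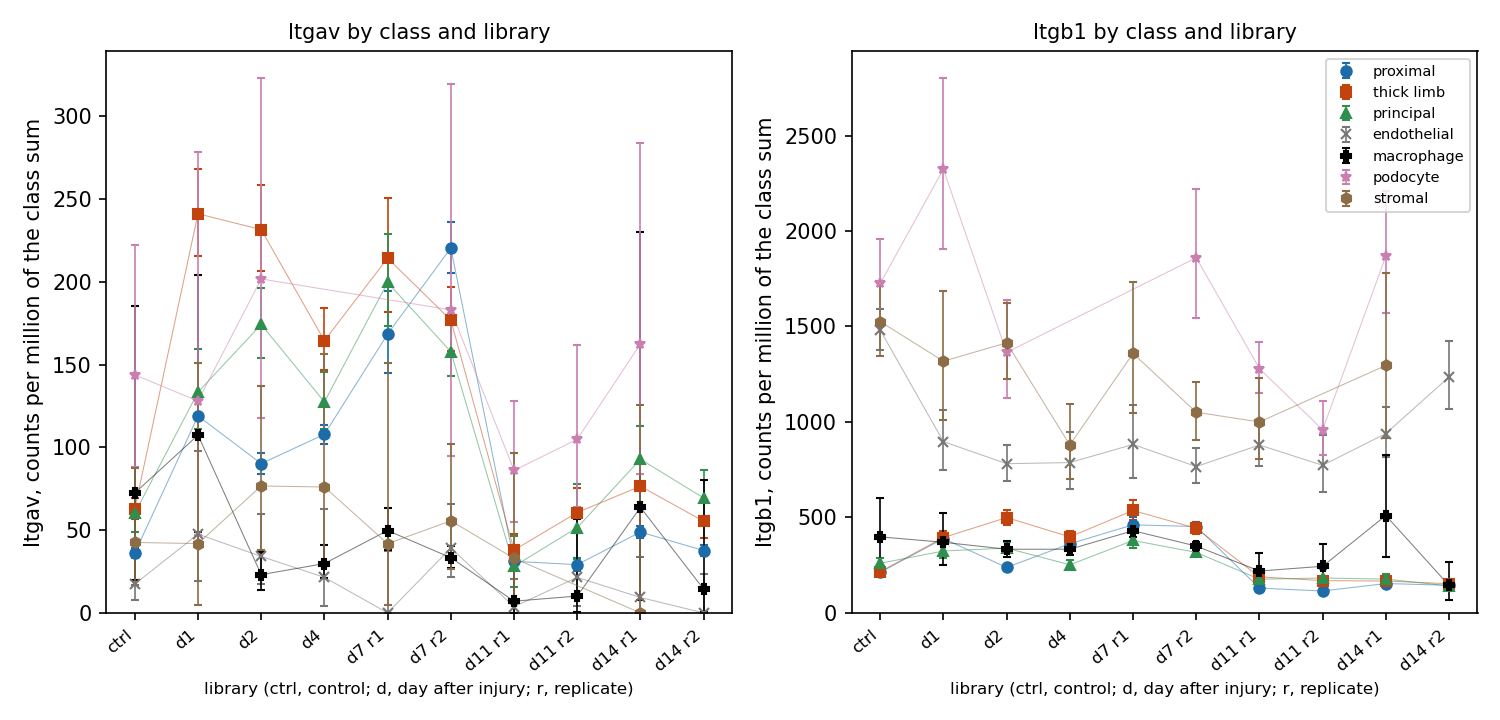
Itgav (left) and Itgb1 (right) in CPM by library for 7 marker-gated classes with at least 20 cells; bars are exact 95% counting intervals and thin lines only join a class's points. Proximal, thick limb and principal cells carry Itgav from 119 to 241 CPM on day 1, and podocytes, stromal cells and endothelial cells carry Itgb1 well above the tubule segments.

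Side by side, Spp1 rose on day 7 in all 4 segments tested, Cd44 in the 3 where it could be tested, Itgav in 3 of 4 and Itgb1 in none. The shares of all genes that passed there were 38.1% in proximal cells, 21.1% in the thick limb, 9.33% in principal and 4.95% in intercalated cells. By day 14 the member that passed against the control in a segment tested was Spp1, in principal and distal convoluted cells. Itgav and Itgb1 did not pass on day 14 in any of the 5 segments, nor did Cd44 in proximal cells or the thick limb. In principal cells Cd44 had no UMI in the control or on day 14, so it could not be compared there. The day 14 shares of all genes were 8.73% in proximal cells, 1.41% in the thick limb, 6.18% in distal convoluted, 2.78% in principal and 0.33% in intercalated cells. These comparisons share the single control library, which is assumed to vary like the replicated days.

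**Figure D5:**
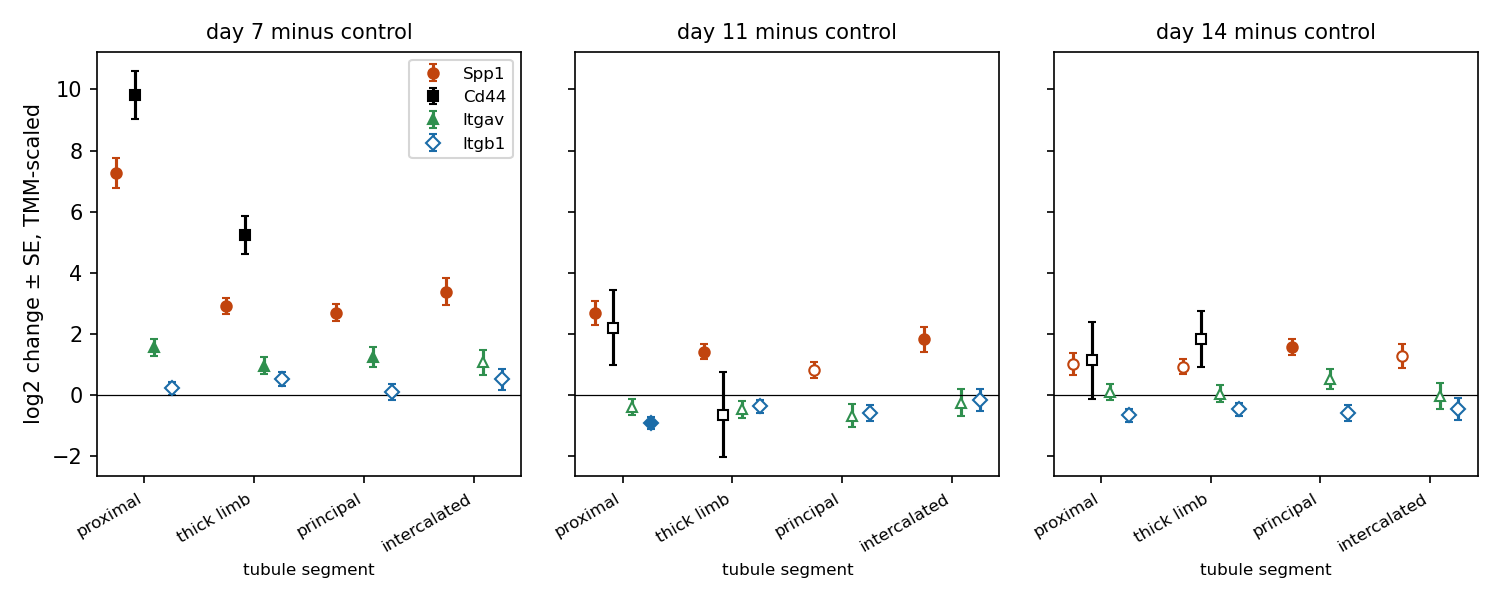
Log2 change against the control (y axis, TMM-scaled, bars are SE) of the 4 members in 4 tubule segments on days 7, 11 and 14; filled symbols passed at an adjusted p under 0.05 in edgeR's quasi-likelihood test and open ones did not, and Cd44 is left out where the control had no UMI. Cd44 and Spp1 lie at 9.81 and 7.26 in proximal cells on day 7, and Spp1 in principal cells is still filled on day 14 at 1.58.

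The genes around the pathway were counted from fixed lists in tubule cells on day 7 against the control, where 34.5% of all genes passed (16.5% higher and 18% lower) and the median change was 0.04. Of 8 other integrin chains that bind osteopontin, none rose and 1 fell, Itgb8 (-1.64, adjusted p = 0.000129), which encodes a partner of alpha v. Itgb3 (2.11, adjusted p = 0.0504) and Itga5 (2.18, adjusted p = 0.0629) missed the threshold. Of 7 tested genes for other ligands of these integrins, 6 rose and none fell, with a median of 1.50. The largest were Fn1, fibronectin (4.77, SE 0.41), Tnc, tenascin C (3.14, SE 0.70), and Npnt, nephronectin, a tubular basement membrane protein (1.72, SE 0.34). Fn1 and Tnc were sparse, at 0.500 and 0.250 CPM in the control, whereas Npnt was 90.5 CPM in the control and 639 and 389 on day 7. Stromal gate markers in the same tubule sums stood at 19.9 CPM in the control and 58.7 in the first day 7 library. The part of stromal RNA in these changes was not tested. All 7 ligand genes fell from day 7 to day 14, a comparison in which 46.5% of all genes passed and 22.2% fell. The SIBLING family, the close relatives of osteopontin, could not be tested, with 3 to 15 UMIs a gene in the tubule cells of all 10 libraries.

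Of 9 tested genes for enzymes that cut or modify osteopontin, 4 rose and 1 fell on day 7. The largest were Mmp7, matrilysin, Mmp12, the macrophage elastase, and Tgm2, a crosslinking transglutaminase (1.08, SE 0.25). Mmp7 had no UMI in the control and 31 and 63 on day 7, and Mmp12 had 4 in the control and 123 and 92 on day 7. Mmp12 stood at 603 and 718 CPM in macrophages and at 27.0 and 8.34 in tubule cells on day 7, and the part of macrophage RNA in that change was not tested. The gene that fell was Alpl, a phosphatase (-0.95, adjusted p = 0.0371). Of 6 hyaluronan genes tested, Hmmr, a hyaluronan receptor also expressed in dividing cells, rose (2.44, adjusted p = 0.0155) and Tmem2, a hyaluronidase, fell (-0.64, adjusted p = 0.0374).

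Of 6 CD44 partners, 3 rose: Cd74, the invariant chain (6.26, SE 0.83), Msn, moesin (1.89, SE 0.24), and Ezr, ezrin (1.06, SE 0.20). Rdx, radixin, of the same membrane-to-actin linker family, fell (-1.36, SE 0.19). Cd74 was 4.36 CPM in the control and 514 and 633 on day 7. In tubule cells without leukocyte UMIs it was 3.39 in the control, then 657 and 622. How much of the tubule Cd74 was leukocyte RNA was not tested. Of 16 genes of the integrin adhesion complex, 6 rose and 2 fell, with a median of 0.49. Zyx, zyxin, rose by 2.15 (SE 0.24), Fermt1, a kindlin that activates integrins, by 1.55 (SE 0.24), and Vcl, vinculin, by 1.10 (SE 0.22). Tln2 (-1.01, SE 0.21) and Tns1 (-0.90, SE 0.21) fell. On day 14, 4 of the 9 processing genes and 3 of the 16 adhesion genes were higher than in the control, and none of the 6 CD44 partners passed in either direction; of all genes 7.68% passed on that day and 4.33% were higher.

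The genes whose levels in tubule cells followed each member most closely were ranked by Pearson's r of log2(CPM + 10) over the 10 libraries, among 6324 genes. The libraries share the days and their depth, so these are descriptions. For Spp1 they were Lcn2, the injury marker lipocalin 2 (r = 0.99), Ptp4a1, Sh3bgrl3, Hmgn1 and 2200002D01Rik. For Cd44 they were H2-DMb2, a class II antigen-loading chain (r = 0.99), Dpysl3, H2-Q7, Vars and Rbbp4. Those for Itgav included Mcl1 (r = 0.99), Ppp2r5e, RP24-390G17.1 and Dstn, and those for Itgb1 included Sept7 (r = 0.99), Utp3, Pdcd6ip and Nab1. H2-DMb2 was 0.786 CPM in control tubule cells and a mean of 63.0 on day 7, and Lcn2 3.11 and 1382.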

How the data were processed

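Per the labels' protocols, single-cell suspensions of kidney cortex were run by Drop-seq and the 3' end of the amplified cDNA was sequenced. The authors deposited 1 table of counts per gene symbol and barcode for each library. The values are whole numbers and were read as UMI counts. The submitters' processing notes name Bowtie2 2.2.7 and the build mm10, without their role; annotation, strand and filters are not given in the sources used here. The members, gene lists and gates were chosen with earlier results of these data known.

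Barcodes under 500 UMIs, under 500 genes or over 50% mitochondrial UMIs were dropped. A cell joined a lineage with at least 2 of its markers and at least 70% of the UMIs of all gate markers (106 of 108 markers were in the tables). A tubule cell joined a segment with at least 2 UMIs, and 70%, of segment marker UMIs. Havcr1-positive cells had at least 1 Havcr1 UMI, and C1q-positive macrophages at least 2 UMIs of C1qa, C1qb and C1qc. No doublet caller was run: cells mixing lineages stay ungated, but doublets of 2 tubule cells do not. Counts of each class with at least 20 cells were summed per library and fitted with edgeR 4.0.16 (R 4.3.3; filter on low counts, TMM scaling, quasi-likelihood test, 1 term per day, all libraries), which was tested on simulated data. The SE is the log2 change divided by the square root of F. Classes were compared within libraries by a two-sided exact permutation test that flips the signs of the differences in log2(CPM + 10), over 36 tests and 12 added later; the smallest p is 0.001953 for 10 libraries and 0.007812 for 8. Shares of cells were also computed for cells thinned to 500 UMIs (the mean over all draws). Intervals are exact Poisson or binomial (95%) and cover counting error only. Genes beyond the members were named by rule: up to 3 per list and direction with the largest called change, and the 5 genes most correlated with each member, of which some are not reported here. Itgb3, Itga5, Mmp7's counts and the macrophage values of Mmp12 were singled out after their values were seen. Alternatives were DESeq2 1.42.0, other scaling, filters, gates and cell minimums, a replicate block, and leaving out each library.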

Additional observations from a re-analysis of the deposited data

Results flagged for a closer look

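Differences between segments in the change from the control, tested as a difference of changes in one model with the library as a block, passed for 3 of 8 member comparisons on day 7, where 21.9% (thick limb) and 20.6% (principal) of all genes differed, and for 2 of 8 on day 11, where 3.4% and 3.26% did. On day 14 edgeR's test called 0 of 7 (1 at an unadjusted p under 0.05), with 3.35% and 3.39% of all genes called. Cd44 against principal cells had no UMI to compare there. The Spp1 change was larger in proximal cells than in the thick limb by 4.35 on day 7 and 1.31 on day 11, and larger than in principal cells by 4.58 on day 7 and 1.94 on day 11 (log2). The Cd44 change on day 7 was larger in proximal cells than in the thick limb by 4.53, resting on 3 control UMIs in each segment. Proximal control cells held 665 Spp1 UMIs at 41.6 CPM, close to the endothelial 46.5 CPM; how much of that control level was free RNA was not tested.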

How the results depend on the processing

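Over the tubule changes and the class differences no result reversed: 386 and 472 alternatives kept their side of the threshold, 16 and 7 gained a call and 18 and 33 lost one. For the changes in single segments and other classes and the remaining class differences, 1236 alternatives kept their side, 20 gained a call and 51 lost one. The cause of these changes was not tested, except where fewer libraries had enough cells. Leaving out 1 library at a time, the tubule changes that crossed the threshold ranged as follows: Spp1 on day 11 against the control 1.01 to 1.37, Cd44 0.957 to 2.98, Itgb1 -0.684 to -0.471. Itgb1 from day 7 to 14 ranged from -0.773 to -0.651, Spp1 from day 11 to 14 from -1.10 to -0.745 (lost without the first day 11 or either day 14 library), and Itgav from day 11 to 14 from 0.410 to 0.814. Among class differences the ranges were 0.192 to 0.422 for Itgb1 by Havcr1 in tubule cells and 0.391 to 0.585 in proximal cells (both called without the second day 11 library), -1.81 to -1.20 for Spp1 in macrophages against tubule, and 0.315 to 0.464 for Itgav in principal against proximal cells (called without the second day 7 library). The call of Itgav from day 11 to 14 was lost with a 90% gate (0.62), mitochondrial UMIs at most 25% (0.59), without the top 5% of cells by UMIs (0.58), with DESeq2 (0.60), with library totals (0.56) and without leukocyte UMIs (0.57). Spp1 from day 11 to 14 lost its call without the top 5% (-0.56) and without leukocyte UMIs (-0.85). Cd44 on day 11 gained a call without the top 5% (2.82), without a filter (2.16), with only the 2 groups compared (2.22) and with all cells (1.90), and from day 11 to 14 without a filter (-1.29). Itgb1 on day 11 gained one without the top 5% (-0.63), without a filter (-0.73), with only the 2 groups (-0.67) and without leukocyte UMIs (-0.72), on day 7 with library totals (1.06), and on day 14 with only the 2 groups (-0.50), as did Itgav on day 11 (-0.53). Same-numbered libraries were not treated as paired. The correlations of their deviations from the day mean (0.06, -0.03 and -0.06) cannot show whether they were. With a replicate block, Itgav from day 11 to 14 was 0.59 (adjusted p = 0.0582), and no other call among the tubule changes between days 7, 11 and 14 moved.

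With at least 50 cells, fewer libraries remained: Spp1 and Cd44 in macrophages against tubule (-0.93 and 1.65) and Itgav and Itgb1 in stromal cells (-0.64 and 2.04) lost their calls, and Itgb1 by Havcr1 gained one in tubule (0.34) and proximal cells (0.56). A 50% gate ended the call of Spp1 in macrophages (-1.30) and gave one in stromal cells (-1.98). A 90% gate left 6 libraries for the macrophage, endothelial and stromal comparisons with tubule cells. Macrophage differences were then -1.09 (Spp1), 1.36 (Cd44) and -1.73 (Itgav), endothelial ones -3.83 (Spp1), -0.37 (Cd44), -1.84 (Itgav) and 2.32 (Itgb1), and stromal ones -1.28 (Itgav) and 1.98 (Itgb1), none called. In the same setting the thick limb differences were 3.43 (Spp1), 0.57 (Itgav) and 0.29 (Itgb1), and the principal one -1.19 (Cd44), none called. These kept 10 libraries and lay near the main values (3.40, 0.56, 0.26 and -1.185). Their adjusted p-values (exact permutation test, 0.0547 and 0.0795) were taken over a family in which other comparisons had fewer libraries. Macrophages differed from endothelial cells by 3.77 (Spp1), 2.09 (Cd44) and -1.35 (Itgb1) over 3 libraries, and Itgav by Havcr1 in proximal cells by 0.34, none called. The last was 0.39 and not called when Havcr1-positive meant at least 2 UMIs. Without leukocyte UMIs, Spp1 in macrophages (-1.02), Itgb1 in the thick limb (0.22) and Cd44 in principal cells (-0.90) lost their calls and Itgb1 by Havcr1 in proximal cells gained one (0.46). Counts of genes called in tubule cells moved by over 1.5 times as follows. On day 14 against the control 1254 became 2461 and 2449 without the first and second day 7 library, 484 and 211 without the first and second day 14 library, 2372 without a filter and 3240 with only the 2 groups. On day 11 2894 became 1751 and 774 without the first and second day 11 library and 4395 with only the 2 groups. From day 11 to 14 2012 became 896 and 503 without the day 11 libraries, 520 and 482 without the day 14 libraries and 3148 with all cells. From day 7 to 11 7227 became 4659 without the second day 11 library, and on day 7 5643 became 8899 with library totals.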
